A study of Mus musculus with 9 samples.

Results

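The genes described here encode enzymes that place or remove methyl groups on histones, together with the protein arginine methyltransferases. They are the rows of the expression table that match a rule on gene symbols, set with earlier results of these data known. Symbols begin with Kdm and a number from 1 to 8, Kmt2, Kmt5, Setd, Suv39h, Ezh1, Ezh2, Nsd1, Nsd2, Nsd3, Prmt, Ehmt, Dot1l or Ash1l. The Y-linked gene Kdm5d was left out. The rule found 54 of the 17596 genes in the table. Of these 54, 52 had a mean of at least 1 FPKM (fragments of a transcript scaled to its length and to the mapped fragments of the library) over the 9 libraries and were tested among 10823 genes that passed the same limit. The 2 that did not were Prmt8, which was between 0 and 0.02 FPKM in every library, and Kdm4d, a demethylase of methylated H3K9, which was between 0.02 and 0.11 FPKM on day 0 and between 0.31 and 0.91 FPKM on day 3. Enzymes listed under other names, such as the arginine methyltransferase Carm1, are not members.

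The study asked how the monocarboxylate transporter MCT1, which carries lactate and pyruvate across the plasma membrane, bears on antibody class switching, and also blotted histone marks, among them H3K27 methylation. RNA was sequenced from primary B cells of the mouse spleen, either naive (day 0, untreated) or cultured for 3 days with 10 μg/ml LPS, a bacterial lipid that activates B cells, and 50 ng/ml IL-4, a cytokine that directs switching to IgG1. The control mice carried Mb1Cre, a Cre recombinase driven in B lineage cells, and the Mct1f/fMb1Cre mice also carried floxed Mct1, designed on the C57BL/6J background, so that both genotypes expressed Cre and deletion was limited to cells with a history of Mb1 expression. There were 2 Mb1Cre and 2 Mct1f/fMb1Cre libraries on day 0, and 2 and 3 on day 3. The labels give no age or sex and do not say whether the libraries came from separate mice, so each p-value measures the spread between libraries, which may be technical.

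Histone methylation is set by lysine methyltransferases, most of which carry a SET domain, and is reversed by lysine demethylases, and the effect of the mark depends on the residue. Methylation of H3K4 and H3K36 is found at active promoters and along transcribed genes, whereas methylation of H3K9 and H3K27 is found in silent chromatin. In B cells, EZH2, the catalytic subunit of the Polycomb complex PRC2, is known to be high in dividing germinal centre cells, whereas its paralog EZH1 is the form of resting cells. The arginine methyltransferases PRMT1 and PRMT5 modify histones, splicing factors and signalling proteins, and both are known to be needed for B cell proliferation.

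Promoter sequence was available for 42 of the 54 members in the RefSeq table of mouse build GRCm38.p6, in windows from 250 bases before to 50 bases after an annotated start, and 4 are shown because Ezh2, Suv39h2 and Prmt1 had among the largest increases with activation and Ezh1 one of the largest decreases. The sequences are written 5′ to 3′ on the strand of the gene, and capitals mark letters of the searched motifs, on either strand. For Ezh2 only 30 bases are shown, chr6:47595016-47595045 (minus strand), since the window's start lies 240 bases inside the outermost annotated start. The windows of Ezh1 (chr11:101226434-101226713), Prmt1 (chr7:44986391-44986670) and Suv39h2 (chr2:3474957-3475236), all on the minus strand, are shown for 280 bases, of which the last 30 follow the start.
Ezh2: ggcgATTGGgttgctgcgTTTGGCGCtcgg
Ezh1: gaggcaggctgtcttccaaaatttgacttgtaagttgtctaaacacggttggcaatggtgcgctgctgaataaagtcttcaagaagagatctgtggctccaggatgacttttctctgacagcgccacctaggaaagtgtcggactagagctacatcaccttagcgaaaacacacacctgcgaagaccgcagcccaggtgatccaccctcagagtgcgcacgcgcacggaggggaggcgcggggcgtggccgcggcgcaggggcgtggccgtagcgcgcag
Prmt1: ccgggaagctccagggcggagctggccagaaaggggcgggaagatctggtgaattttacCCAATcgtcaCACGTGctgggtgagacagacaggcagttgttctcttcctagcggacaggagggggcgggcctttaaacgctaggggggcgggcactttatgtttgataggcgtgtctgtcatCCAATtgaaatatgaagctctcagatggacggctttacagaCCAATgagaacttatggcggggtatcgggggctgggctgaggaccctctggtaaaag
Suv39h2: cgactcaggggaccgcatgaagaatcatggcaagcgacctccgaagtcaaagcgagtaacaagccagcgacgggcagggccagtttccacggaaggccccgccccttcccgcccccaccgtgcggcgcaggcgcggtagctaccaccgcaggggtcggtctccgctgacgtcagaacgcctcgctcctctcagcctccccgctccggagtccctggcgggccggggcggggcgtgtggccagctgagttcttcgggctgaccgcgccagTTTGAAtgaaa

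The letters searched were TTTCGCGC, TTTGGCGC and TTTCCCGC (E2F), TTTGAA (CHR, a cell cycle element), CCAAT (NF-Y) and CACGTG (E-box), which do not overlap in the stretches shown. TTTGGCGC is found in 0.585% of the 27025 genes with a window and among the members in Ezh2 alone. CCAAT was found in 41.1% of all genes and in 19 of the 42 members. Among these were 6 of the 9 members with a window that rose in activated Mb1Cre cells and 1 of the 11 that fell. The other matches were in members that were not called. The shares among all genes that rose or fell were not counted, so the split has no background. In the stretches shown, CCAAT (as ATTGG, its reverse complement) precedes TTTGGCGC in Ezh2, Prmt1 holds CCAAT at 3 places and CACGTG once, and Suv39h2 holds TTTGAA, while the Ezh1 window held none of the 6 motifs. TTTGAA is in 20.2% of genes and 4 members, CACGTG in 8.09% and 5 members, TTTCCCGC in 1.24% and 1 member (Kmt5c), and TTTCGCGC in 0.374% and no member. A match in letters describes the window and is not evidence of binding.

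Slc16a1, the gene that encodes MCT1, was reported first as a check of the labels. On day 3 it was 22.6 and 23.0 FPKM in Mb1Cre and 10.8, 9.81 and 9.50 FPKM in Mct1f/fMb1Cre libraries, without overlap (p = 0.1 in a two-sided exact permutation test, which cannot give less for 3 against 2 libraries). In naive cells it was 3.80 to 4.33 FPKM in Mb1Cre and 3.71 to 4.06 FPKM in Mct1f/fMb1Cre libraries, which overlapped. The genotype labels of the naive libraries, used in the day 0 and interaction tests, were thus not checked by this gene. The FPKM of all genes summed to 477079 to 491459 on day 0 and to 547355 to 563586 on day 3. The 6 B cell markers fixed for this work summed to 4183 to 4612 FPKM in naive and 2182 to 2271 FPKM in activated libraries, the 7 myeloid markers to 1002 to 1775 and 15.4 to 26.2 FPKM, the 6 T and NK cell markers to 50.2 to 58.7 and 5.92 to 7.46 FPKM, and the 4 erythroid markers to 58.2 to 104 and 4.34 to 7.95 FPKM. No marker was at 0 in all libraries of a day. One library stood apart, Mct1f/fMb1Cre day 0 replicate 1, with the highest myeloid sum (1775 FPKM against 1002 to 1194 FPKM in the other naive libraries) and with Y-linked Ddx3y at 31.1 FPKM. Ddx3y was 0.02 to 0.24 FPKM in the other naive libraries and 14.7 to 16.9 FPKM in all day 3 libraries, so the day of culture and the sex of the mice cannot be told apart in Mb1Cre cells. These values move with every day 3 against day 0 comparison that follows, and their part in it was not tested. In whole-population RNA, fewer cells of a type and less RNA per cell cannot be told apart either.

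In FPKM not scaled further, the total of the members changed less between the days than the sums of the roles that follow. The 54 members summed to 1198 ± 26.4 FPKM in the naive libraries (SD, n = 4) and to 1147 ± 16.3 FPKM in the activated libraries (SD, n = 5), a ratio of 0.958. Within that total the mean summed FPKM in activated libraries was 2.26 times that in naive libraries for the H3K27 writers and 1.94 times for the arginine methyltransferases, but 0.368 times for the H3K27 erasers and 0.569 times for the H3K4 writers. The FPKM of all genes, given above, summed to more on day 3, so all these ratios would be lower with libraries scaled to the same total. In Mb1Cre cells, 31 of the 52 tested members passed both thresholds (an adjusted p below 0.05, and a difference of log2(FPKM + 1) above 0.5 in either direction), 10 being higher and 21 lower on day 3. Over all genes tested, 24.8% were called higher and 33% lower. The share called in either direction was thus near that of all genes (59.6% of members, 57.8% of all genes). In Mct1f/fMb1Cre cells 12 members rose and 20 fell, against 23.4% and 33.2% of all genes. The median log2 fold change of the 52 members was -0.40 in Mb1Cre and -0.39 in Mct1f/fMb1Cre cells, and that of all genes tested -0.12 and -0.14. The plot of log2 fold changes by role shows both genotypes side by side.

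The split depended on how libraries were scaled. In Mb1Cre cells 7 members rose and 29 fell when libraries were scaled to the same total, 14 and 16 under median-of-ratios scaling, and 10 and 18 under quantile normalization. The Mct1f/fMb1Cre counts were 10 and 27, 14 and 15, and 13 and 17. The same scalings placed the median of all genes at -0.31, 0.06 and 0.02 in Mb1Cre cells. Relative to that median the members were placed alike, since 19 of 52 lay above it in the unscaled values, 19 and 19 under the first and second scaling and 17 under the third. The sign of 7 members that were not called in Mb1Cre cells, Setd1a, Kdm4a, Kdm8, Ehmt2, Kmt5c, Setd5 and Setd6, turned with the scaling, while none of the called members turned.

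**Figure D1:**
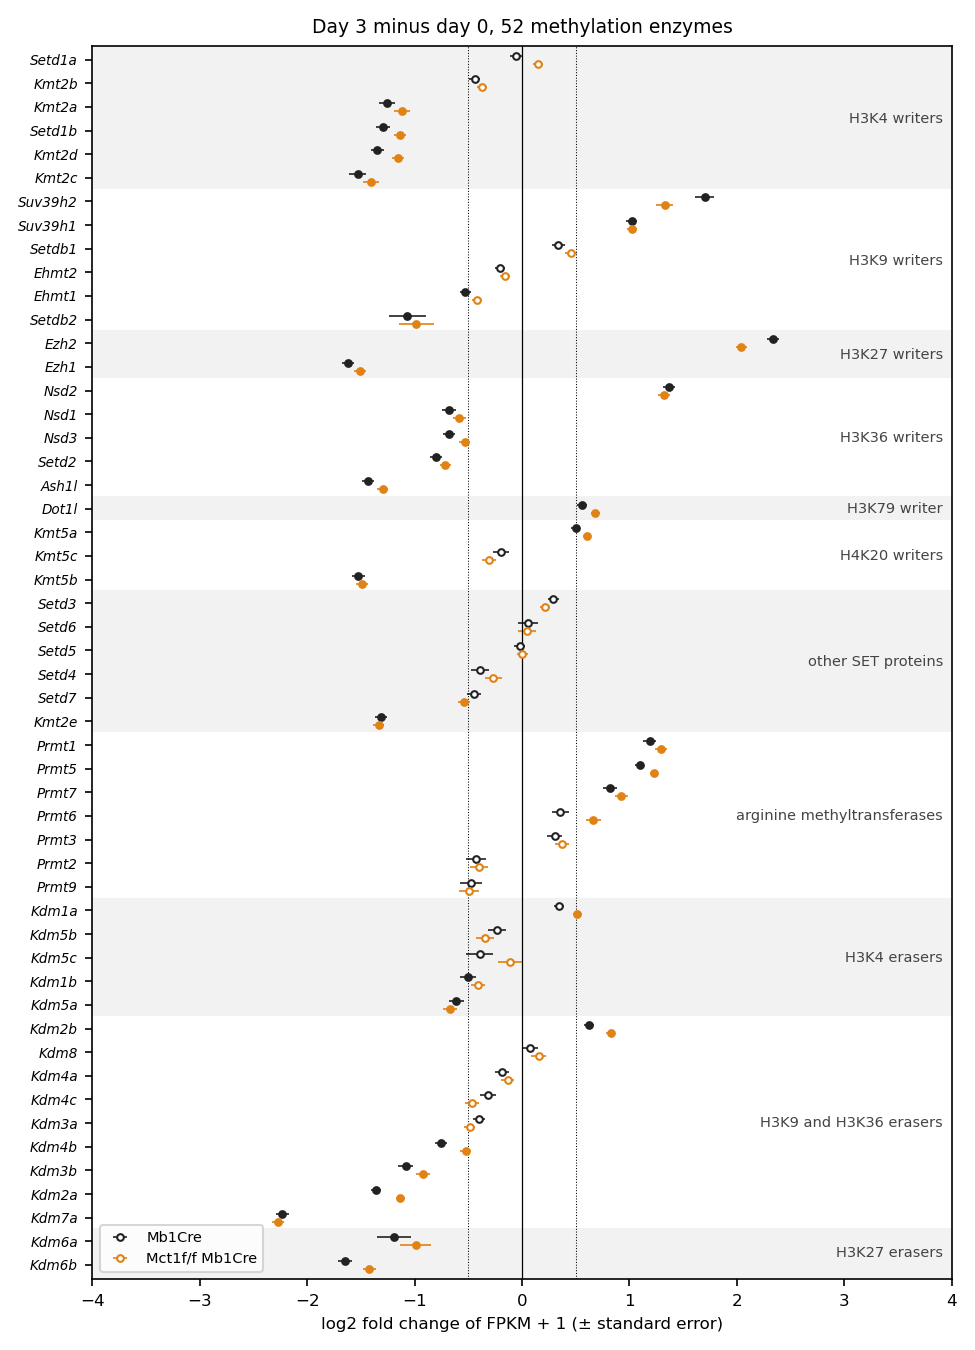
Log2 fold change of FPKM + 1 (horizontal axis) between day 3 and day 0 for the 52 tested members, grouped by role, in Mb1Cre (black) and Mct1f/fMb1Cre (orange) cells. Bars are standard errors, filled points were called, and dotted lines mark the limit of 0.5. Ezh2 lies farthest to the right and Kdm7a farthest to the left in both genotypes.

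The enzymes of H3K27 methylation were reordered most. Ezh2 was 16.9 and 15.2 FPKM in naive Mb1Cre and 17.6 and 17.2 FPKM in naive Mct1f/fMb1Cre libraries, and 83.5 and 86.7 FPKM, and 76.1, 71.7 and 76.7 FPKM, respectively, on day 3. Every activated library was above every naive one, and Ezh2 moved from rank 35 to rank 2 among the 54 members by mean FPKM. Its log2 fold change was 2.34 (SE 0.057, adjusted p = 2.46e-11, limma) in Mb1Cre and 2.04 (SE 0.052, adjusted p = 2.98e-11, limma) in Mct1f/fMb1Cre cells. Ezh2 lies at chr6:47530274-47595270 in GRCm38.p6. Ezh1, the paralog, was 22.0, 21.4, 20.7 and 20.5 FPKM in the naive libraries and 6.34, 6.43, 6.72, 6.23 and 6.88 FPKM on day 3. Here and for the members that follow, values are ordered as Mb1Cre and then Mct1f/fMb1Cre libraries, each by replicate number. The days did not overlap, and the log2 fold change was -1.62 (SE 0.059, adjusted p = 4.60e-10, limma) in Mb1Cre and -1.51 (SE 0.054, adjusted p = 3.57e-10, limma) in Mct1f/fMb1Cre cells. Ezh2 thus held 41.6% to 46.0% of the summed FPKM of the pair in naive and 91.8% to 93.1% in activated libraries.

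The H3K27 demethylases fell. Kdm6b, an inducible demethylase also known as JMJD3, was 18.1 and 19.1 FPKM in naive Mb1Cre, 16.8 and 17.4 FPKM in naive Mct1f/fMb1Cre, 5.27 and 5.22 FPKM in activated Mb1Cre and 5.45, 5.73 and 6.14 FPKM in activated Mct1f/fMb1Cre libraries. All activated libraries were lower, by a log2 fold change of -1.65 (SE 0.064, adjusted p = 8.31e-10, limma) in Mb1Cre and -1.42 (SE 0.059, adjusted p = 1.21e-09, limma) in Mct1f/fMb1Cre cells. X-linked Kdm6a, or UTX, was 18.4 and 18.1 FPKM in naive Mb1Cre and 11.6 and 19.1 FPKM in naive Mct1f/fMb1Cre libraries, and 6.99 and 7.86 FPKM, and 6.98, 7.06 and 6.95 FPKM on day 3. Replicate 1 of naive Mct1f/fMb1Cre, the library with Y-linked RNA, lay between the other naive libraries and the activated ones. The log2 fold change was -1.19 (SE 0.16, adjusted p = 2.92e-05, limma) in Mb1Cre and -0.99 (SE 0.15, adjusted p = 6.17e-05, limma) in Mct1f/fMb1Cre cells, and the value in Mct1f/fMb1Cre cells was -1.33 without naive replicate 1 and -0.65 without naive replicate 2.

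**Figure D2:**
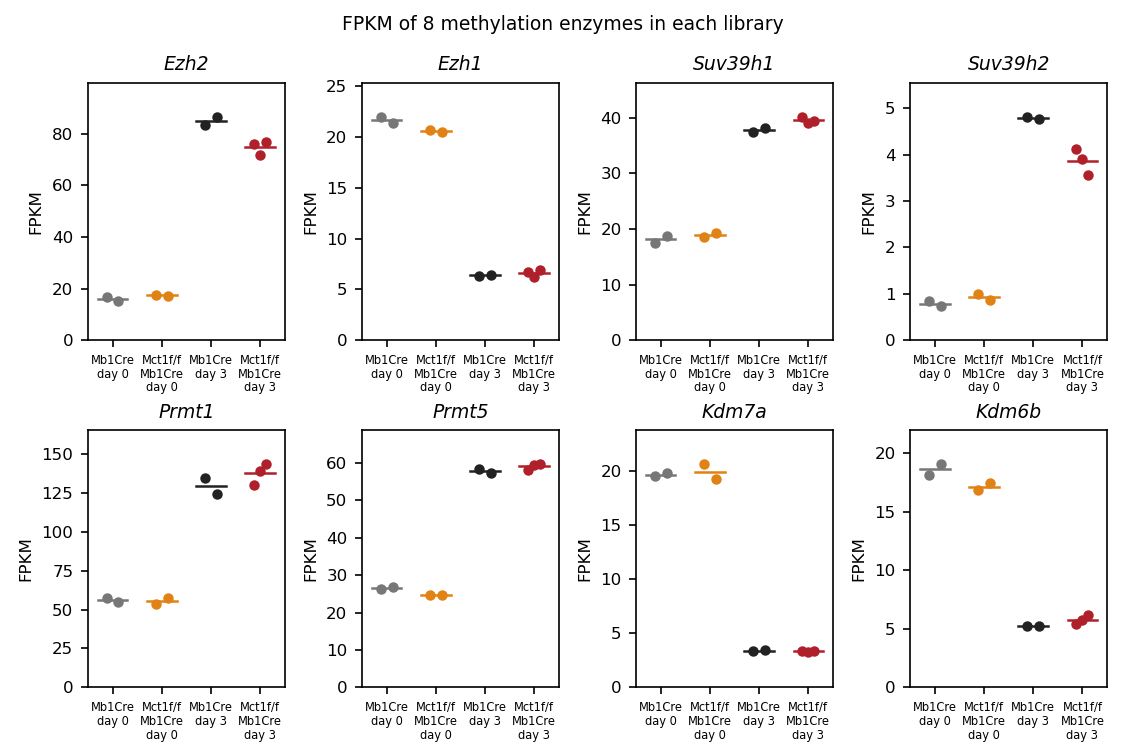
FPKM of 8 members (vertical axes, from 0) in each of the 9 libraries, by genotype and day. Points are libraries and lines are group means. Ezh2, Suv39h1, Suv39h2, Prmt1 and Prmt5 are higher, and Ezh1, Kdm7a and Kdm6b lower, in every activated library than in any naive library.

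Of the 6 H3K9 writers, Suv39h1 and Suv39h2 rose in both genotypes. Suv39h2 was 0.84, 0.73, 1.00 and 0.87 FPKM in the naive Mb1Cre and Mct1f/fMb1Cre libraries, and 4.82 and 4.77 FPKM in activated Mb1Cre and 4.12, 3.90 and 3.56 FPKM in activated Mct1f/fMb1Cre libraries. Both days and, on day 3, both genotypes were separate, and the log2 fold change with activation was 1.70 (SE 0.089, adjusted p = 9.13e-09, limma) in Mb1Cre and 1.33 (SE 0.081, adjusted p = 3.15e-08, limma) in Mct1f/fMb1Cre cells. Suv39h1, X-linked at chrX:8061171-8074760, was the main form, at 17.5, 18.7, 18.6 and 19.4 FPKM in naive and 37.4, 38.2, 40.3, 39.0 and 39.5 FPKM in activated libraries in the same order. Every activated library was above every naive one, with a log2 fold change of 1.02 (SE 0.049, adjusted p = 4.50e-09, limma) in Mb1Cre and 1.02 (SE 0.045, adjusted p = 1.91e-09, limma) in Mct1f/fMb1Cre cells. Its share of the pair went from 94.9% to 96.3% on day 0 to 88.6% to 91.7% on day 3.

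The most abundant H3K9 writer was Ehmt2, or G9a, which with Ehmt1 makes the H3K9 mono- and dimethylation of euchromatin. It was 54.9, 59.1, 56.8 and 56.5 FPKM in naive and 49.6, 49.0, 49.0, 51.5 and 51.5 FPKM in activated libraries. The activated libraries were lower by less than the limit (log2 fold change -0.20, SE 0.048, in Mb1Cre), and the sign turned under another scaling. Ehmt1 was called lower in Mb1Cre (-0.53) and not in Mct1f/fMb1Cre cells (-0.42), Setdb2 fell in both (-1.07 and -0.98), and Setdb1 was not called (0.34 and 0.45).

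Among the 6 H3K4 writers, 4 fell and none rose in each genotype. Of all genes tested, 33% fell and 24.8% rose in Mb1Cre cells, and 33.2% and 23.4% in Mct1f/fMb1Cre cells. Kmt2c (MLL3), which with Kmt2d monomethylates H3K4 at enhancers, was 17.1, 14.4, 15.6 and 15.7 FPKM in naive and 4.55, 5.02, 5.57, 5.16 and 5.13 FPKM in activated libraries. Its days did not overlap, and the log2 fold change was -1.53 (SE 0.082, adjusted p = 1.17e-08, limma) in Mb1Cre and -1.41 (SE 0.075, adjusted p = 1.01e-08, limma) in Mct1f/fMb1Cre cells. Kmt2d, Setd1b and Kmt2a fell by 1.35, 1.30 and 1.26 in Mb1Cre and by 1.16, 1.13 and 1.12 in Mct1f/fMb1Cre cells on the log2 scale. Kmt2b and Setd1a were the exceptions. Kmt2b, the most abundant of the 6 by its mean over all libraries though on neither day alone, was 34.3, 33.6, 32.3 and 32.2 FPKM in naive and 24.2, 25.3, 24.7, 23.6 and 25.8 FPKM in activated libraries, lower in every activated library but under the limit (-0.44, SE 0.052, in Mb1Cre). Setd1a, the catalytic subunit of a complex that trimethylates H3K4, was 22.6 to 25.1 FPKM on day 0 and 22.8 to 25.8 FPKM on day 3, which overlapped. Its share of the summed FPKM with Setd1b went from 51.8% to 53.3% up to 72.9% to 75.0%.

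The 5 H3K4 erasers moved less. Kdm1a (LSD1) was 21.2 to 23.2 FPKM on day 0 and 29.1 to 31.8 FPKM on day 3 and was called higher in Mct1f/fMb1Cre (0.51, and 0.49 without naive replicate 1, which ends the call) and not in Mb1Cre cells (0.34). Its share with Kdm1b went from 69.7% to 71.7% up to 81.5% to 83.0%. Kdm5a fell in both genotypes (-0.61 and -0.67) but was called in neither with a pseudocount of 5 (-0.45 and -0.50), median-of-ratios scaling (-0.42 and -0.47) or quantile normalization (-0.44 and -0.47). Kdm1b was called in Mb1Cre cells (-0.51, and -0.48 or -0.45 without day 0 replicate 2 or day 3 replicate 1, which end the call) and not in Mct1f/fMb1Cre cells (-0.41), and Kdm5b was not called (-0.23 and -0.35). X-linked Kdm5c was 35.8, 32.2, 23.6 and 33.6 FPKM in naive and 25.0, 26.2, 27.2, 24.7 and 26.3 FPKM in activated libraries. Naive Mct1f/fMb1Cre replicate 1 had the lowest of the 9 values, and without it all naive libraries were above all activated ones. That replicate was the only naive library with Y-linked Ddx3y (31.1 FPKM), which every activated library also held (14.7 to 16.9 FPKM). The separation of the days without it thus cannot be told apart from sex. Kdm5c was not called in either genotype (-0.39 and -0.11).

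All 5 H3K36 writers were called in each genotype, 1 higher and 4 lower, against 57.8% (Mb1Cre) and 56.5% (Mct1f/fMb1Cre) of all genes called. Nsd2, also known as MMSET, a dimethyltransferase of H3K36, was 10.4, 9.65, 10.0 and 10.1 FPKM in naive and 27.2, 27.6, 27.4, 25.2 and 27.6 FPKM in activated libraries. All activated libraries were higher, by 1.37 (SE 0.058, adjusted p = 1.69e-09, limma) in Mb1Cre and 1.32 (SE 0.053, adjusted p = 9.71e-10, limma) in Mct1f/fMb1Cre cells on the log2 scale. Its paralogs went the other way. Nsd3, the most abundant of the 5 on both days, was 46.2, 46.9, 45.3 and 43.7 FPKM in naive and 27.4, 30.1, 31.5, 29.3 and 30.3 FPKM in activated libraries, and fell by 0.68 (SE 0.055) and 0.53 (SE 0.050) on the log2 scale. Nsd1 fell by 0.68 and 0.58, and Setd2, which trimethylates H3K36, by 0.80 and 0.71. Nsd1 (-0.48 and -0.37) and Nsd3 (-0.47 and -0.32) were not called under median-of-ratios scaling, nor in Mct1f/fMb1Cre cells with a pseudocount of 5 (-0.50 and -0.48). Ash1l was 28.6, 26.4, 26.8 and 25.5 FPKM in naive and 9.42, 9.64, 10.2, 9.95 and 9.99 FPKM in activated libraries, without overlap, with a log2 fold change of -1.44 (SE 0.056, adjusted p = 8.05e-10, limma) in Mb1Cre and -1.30 (SE 0.051, adjusted p = 7.94e-10, limma) in Mct1f/fMb1Cre cells.

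Demethylases of H3K9 and H3K36 were led by 1 large decrease. Kdm7a, a PHD finger demethylase of H3K9 and H3K27, was summed with this group and not with the H3K27 erasers. It was 19.5, 19.8, 20.7 and 19.2 FPKM in naive and 3.39, 3.41, 3.33, 3.31 and 3.33 FPKM in activated libraries. The activated libraries were nearly equal and far below the naive ones, and the log2 fold change was -2.23 (SE 0.059, adjusted p = 4.56e-11, limma) in Mb1Cre and -2.27 (SE 0.054, adjusted p = 1.89e-11, limma) in Mct1f/fMb1Cre cells. Kdm2a and Kdm2b, H3K36 demethylases that bind CpG islands, changed in opposite directions. Kdm2a, at chr19:4316144-4398721, was 60.8, 60.7, 60.6 and 60.8 FPKM on day 0, and 22.4 and 23.6 FPKM in activated Mb1Cre and 28.1, 26.5 and 26.8 FPKM in activated Mct1f/fMb1Cre libraries. The naive libraries were nearly equal and far above the activated ones, with a log2 fold change of -1.36 (SE 0.047, adjusted p = 3.01e-10, limma) in Mb1Cre and -1.13 (SE 0.043, adjusted p = 5.72e-10, limma) in Mct1f/fMb1Cre cells. Kdm2b rose by 0.63 and 0.83, so that the share of Kdm2a in the pair went from 70.8% to 73.6% down to 36.4% to 42.2%. Of the other members of this group, Kdm3b (-1.08 and -0.92) and Kdm4b (-0.75 and -0.53, the second at -0.50 and no longer called without Mct1f/fMb1Cre day 3 replicate 1) fell in both genotypes, while Kdm3a, Kdm4a, Kdm4c and Kdm8 were called in neither.

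**Figure D3:**
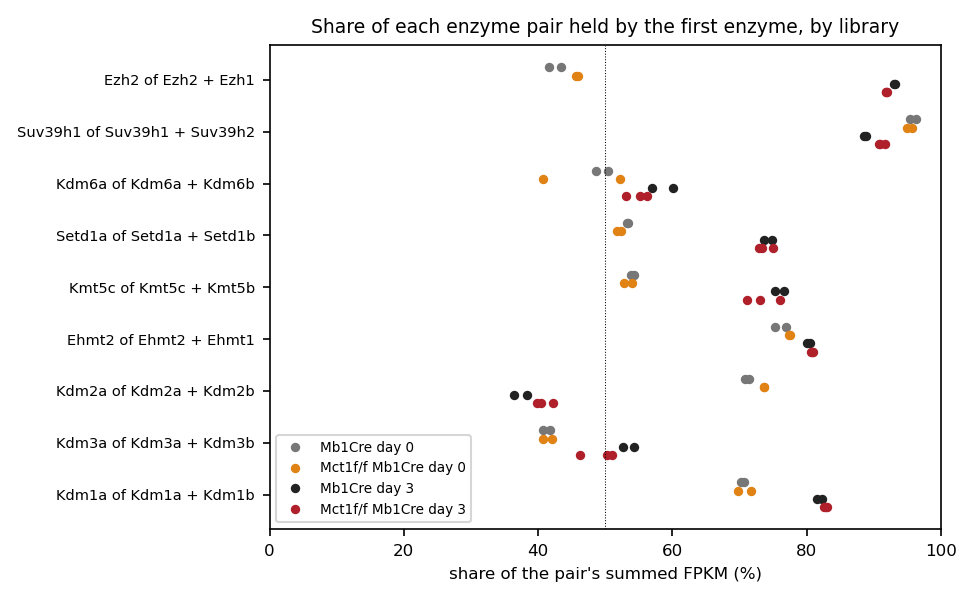
Share of the first enzyme in the summed FPKM of 9 enzyme pairs (horizontal axis, percent), with 1 point for each library, by genotype and day. Ezh2 went from 41.6% to 46.0% on day 0 to 91.8% to 93.1% on day 3, and Kdm2a from 70.8% to 73.6% to 36.4% to 42.2%.

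The writers of H4K20 and H3K79 were split as well. Kmt5a, the monomethyltransferase of H4K20 that acts in mitosis, was 31.3, 32.3, 32.3 and 32.1 FPKM in naive and 44.6, 46.3, 49.7, 49.8 and 48.9 FPKM in activated libraries. It was higher in every activated library, and its log2 fold change was 0.50 (SE 0.043) in Mb1Cre and 0.61 (SE 0.039) in Mct1f/fMb1Cre cells, the first of which fell under the limit without day 0 replicate 1 (0.48) or day 3 replicate 2 (0.47). Kmt5b, which adds the second and further methyl groups, was 27.1, 26.8, 28.4 and 26.3 FPKM in naive and 8.79, 8.64, 9.30, 8.56 and 9.42 FPKM in activated libraries, without overlap, at -1.53 (SE 0.061, adjusted p = 9.59e-10, limma) and -1.49 (SE 0.055, adjusted p = 5.14e-10, limma). Kmt5c, its paralog, was not called (-0.20 and -0.31), and its share of the pair went from 52.8% to 54.2% up to 71.1% to 76.7%. Dot1l, the H3K79 methyltransferase, was 22.7, 22.0, 20.5 and 21.5 FPKM in naive and 33.1, 33.9, 34.0, 33.5 and 35.4 FPKM in activated libraries, higher in all activated libraries by 0.56 (SE 0.049) and 0.68 (SE 0.044) on the log2 scale. In Mb1Cre cells Dot1l was not called with a pseudocount of 5 (0.49) or with libraries scaled to the same total (0.37), nor was Kmt5a (0.45 and 0.30).

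Arginine methyltransferases held the largest FPKM of the members on day 3. Prmt1, the main enzyme of asymmetric arginine dimethylation, was 57.2, 55.2, 53.5 and 57.5 FPKM in naive and 134, 124, 130, 139 and 144 FPKM in activated libraries. No naive library reached the activated ones, and the log2 fold change was 1.19 (SE 0.060, adjusted p = 6.94e-09, limma) in Mb1Cre and 1.29 (SE 0.055, adjusted p = 1.49e-09, limma) in Mct1f/fMb1Cre cells. Prmt5, the main enzyme of symmetric dimethylation, was 26.2, 26.97, 24.8 and 24.6 FPKM in naive and 58.5, 57.4, 58.1, 59.5 and 59.8 FPKM in activated libraries, again without overlap, with a log2 fold change of 1.09 (SE 0.042, adjusted p = 7.05e-10, limma) and 1.23 (SE 0.038, adjusted p = 1.27e-10, limma). Prmt7 rose by 0.82 and 0.93, and Prmt6 was called in Mct1f/fMb1Cre (0.66) and not in Mb1Cre cells (0.36), a difference of 0.31 that did not pass (adjusted p = 0.108, limma). Prmt3 (0.30 and 0.37), Prmt2 (-0.43 and -0.40) and Prmt9 (-0.47 and -0.50) were not called.

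Of the 6 other SET proteins, Kmt2e was the most abundant member of all on day 0, at 63.9, 66.2, 64.2 and 63.8 FPKM, and was 24.5, 26.6, 26.3, 24.3 and 24.0 FPKM on day 3. It fell in both genotypes by 1.31 (SE 0.057) and 1.33 (SE 0.052) on the log2 scale. Setd7 was called in Mct1f/fMb1Cre (-0.54) and not in Mb1Cre cells (-0.45), and Setd3, a histidine methyltransferase of actin, Setd4, Setd5 and Setd6 were called in neither.

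Between the genotypes, no member was called. On day 3, 0 of 52 members passed both the adjusted p and the limit of 0.5 in limma, against 2.42% of all genes, and 6 (11.5%) had an unadjusted p under 0.05, against 29% of all genes. The largest differences were 0.24 (Setdb2, SE 0.16) and -0.26 (Suv39h2). Without the limit, 2 members passed, against 15.2% of all genes. Kdm2a, whose values are given above, was higher in all 3 Mct1f/fMb1Cre than in both Mb1Cre libraries on day 3, by 0.23 (SE 0.043, adjusted p = 0.00498, limma). It passed in 18 of 19 alternatives and not without Mb1Cre day 3 replicate 1 (adjusted p = 0.0681, limma). Ezh2 was lower in all 3 Mct1f/fMb1Cre libraries, by -0.18 (SE 0.052, adjusted p = 0.0374, limma), and passed in 9 of 19 alternatives, with an adjusted p between 0.0189 and 0.214. It did not pass without either Mb1Cre day 3 library (adjusted p = 0.114 without replicate 1 and 0.214 without replicate 2, limma). Suv39h2 was lower without overlap but did not pass (SE 0.081, adjusted p = 0.0589, limma). The same held for Kdm3a, lower by -0.16 (adjusted p = 0.0549, limma). Kmt2d (0.17, adjusted p = 0.0621, limma) and Kmt5a (0.12, adjusted p = 0.0647, limma) were higher without overlap and did not pass either. No share of all genes is given for such separation of the libraries. The sum of 7 myeloid markers was 15.4 to 17.3 FPKM in Mb1Cre and 23.1 to 26.2 FPKM in Mct1f/fMb1Cre libraries on day 3. Most of it was Lyz2, at 11.5 and 10.0 FPKM in Mb1Cre and 16.8, 17.6 and 20.4 FPKM in Mct1f/fMb1Cre libraries. Of the 7 markers, 5 had a positive difference, 2 of them called, and 2 (S100a8 and S100a9) a negative one. The part of these markers in the differences of the members was not tested.

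**Figure D4:**
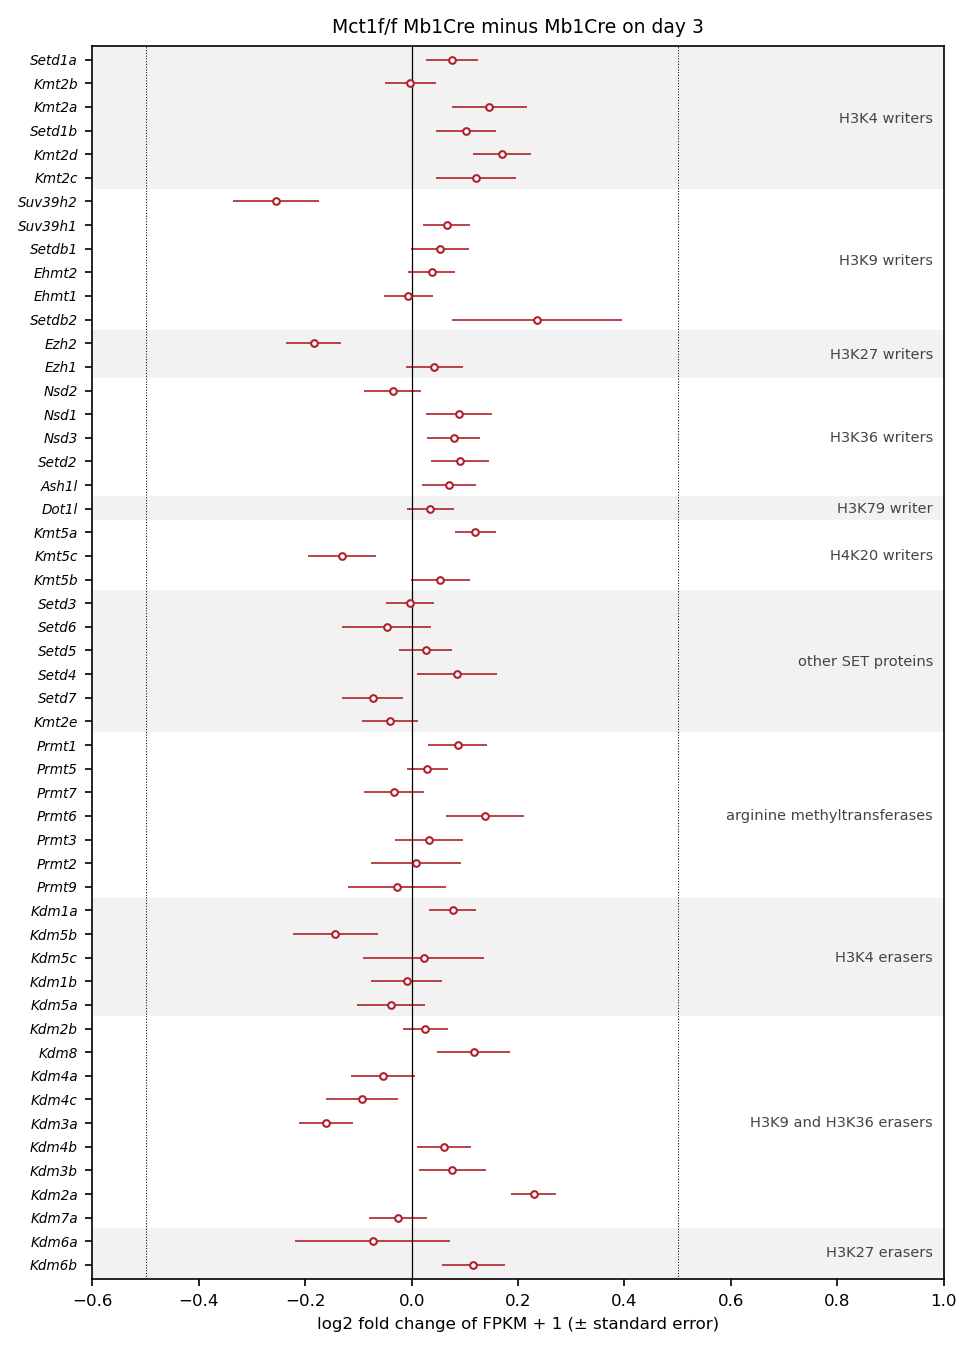
Log2 fold change of FPKM + 1 (horizontal axis) between Mct1f/fMb1Cre and Mb1Cre libraries on day 3 for the 52 tested members, grouped by role, with standard errors. Dotted lines mark the limit of 0.5, which no member reached. The differences run from -0.26 (Suv39h2) to 0.24 (Setdb2).

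On day 0, 0 of 52 members were called, against 0.277% of all genes, and 6 (11.5%) had an unadjusted p under 0.05 in limma, against 11.7% of all genes. In the test of whether the genotype difference on day 3 differed from that on day 0, 0 members were called, against 3.23% of all genes, and 11 (21.2%) had an unadjusted p under 0.05, against 25.4% of all genes. Without the limit 2 passed, against 9.42% of all genes. They were Ezh2 at -0.30 (SE 0.077, adjusted p = 0.0382, limma), which passed in 5 of 18 alternatives, and Kdm2a at 0.23 (SE 0.063, adjusted p = 0.0460, limma), which passed in 4 of 18. Neither passed without Mb1Cre day 3 replicate 1 (adjusted p = 0.0846 for Ezh2 and 0.165 for Kdm2a, limma) or replicate 2 (adjusted p = 0.126 and 0.0672, limma).

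The genotype values of the X-linked demethylases depended on a single library. In naive Mct1f/fMb1Cre cells, Kdm6a was 11.6 FPKM in replicate 1 and 19.1 FPKM in replicate 2, and Kdm5c was 23.6 and 33.6 FPKM. Both genes escape X inactivation and have partners on the Y chromosome. Y-linked Ddx3y was 31.1 FPKM in replicate 1 and 0.20 FPKM in replicate 2, and Uty, the Y-linked homolog of Kdm6a, was 9.90 and 2.66 FPKM. With both libraries the day 0 genotype differences were -0.28 for Kdm6a and -0.26 for Kdm5c, and neither was called. Without replicate 2 they were -0.61 (adjusted p = 0.00453, limma) and -0.51 (adjusted p = 0.0161, limma), and without replicate 1 they were 0.06 and -0.02. Suv39h1, the third X-linked member, was 18.6 and 19.4 FPKM in the same libraries. The sum of the myeloid markers was highest in replicate 1, so the part of sex in these values and that of other cells were not separated.

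**Figure D5:**
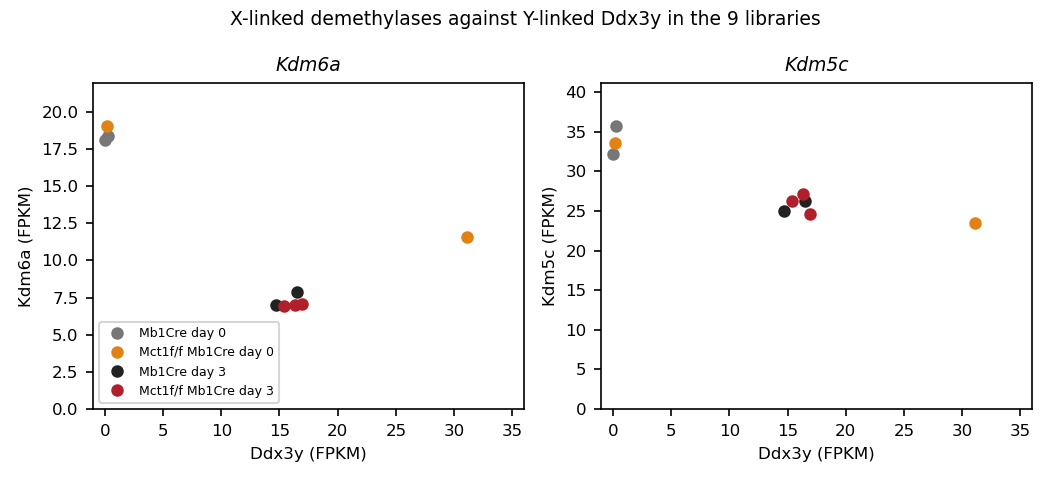
FPKM of Kdm6a (left) and Kdm5c (right) against FPKM of Y-linked Ddx3y, with 1 point for each of the 9 libraries, coloured by group. The 3 naive libraries without Ddx3y have the highest Kdm6a and Kdm5c, and the naive library with Ddx3y at 31.1 FPKM has 11.6 and 23.6 FPKM.

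Genes that work with these enzymes were taken from lists of partners. For comparison with the counts of each list in Mb1Cre cells, 24.8% of all genes tested rose and 33% fell with activation. Of 9 PRC2 partners, 6 rose and 2 fell in activated Mb1Cre cells. Phf19, an accessory subunit, was 4.06 to 5.90 FPKM on day 0 and 9.33 to 12.8 FPKM on day 3 and rose by 1.43, whereas Phf1, another accessory subunit of the same family, went from between 66.7 and 72.3 FPKM to between 5.27 and 6.35 FPKM and fell by 3.40 on the log2 scale. The genotype difference of Phf19 on day 3 minus that on day 0 was -0.58 (SE 0.15, adjusted p = 0.0401, limma), a call held in 6 of 18 alternatives. Naive Mct1f/fMb1Cre replicate 2 was 5.90 FPKM against 4.20 FPKM in replicate 1, and without it the difference was -0.37 and not called (adjusted p = 0.0673, limma). Of 12 partners in the COMPASS complexes of H3K4 methylation, 4 rose, led by Ash2l (0.81), and Cxxc1 fell (-0.68). That is 41.7% called, below the 57.8% of all genes. Of 7 genes around arginine methylation, 4 rose, led by Coprs (1.19), and Btg1, an antiproliferative partner of PRMT1, fell by 2.85, from between 278 and 316 FPKM to between 41.7 and 48.0 FPKM. Of 9 genes of the methyl donor cycle, 6 rose and none fell in Mb1Cre cells. Ahcy, which clears the product that inhibits methyltransferases, was 18.1 to 20.7 FPKM on day 0, 103 and 103 FPKM in activated Mb1Cre and 123, 122 and 126 FPKM in activated Mct1f/fMb1Cre libraries, a log2 fold change of 2.36 in Mb1Cre cells. Srm, the spermidine synthase, rose by 2.12. All 9 proliferation genes rose, from a sum of 182 to 212 FPKM to one of 801 to 830 FPKM. In Mct1f/fMb1Cre cells the counts of genes that rose and fell were 6 and 2 for PRC2, 3 and 0 for COMPASS, 3 and 1 around arginine methylation, 6 and 1 (Mat2b, -0.50) for the methyl donor cycle and 9 and 0 for proliferation. Of all genes tested, 23.4% rose and 33.2% fell in Mct1f/fMb1Cre cells. No gene of these 5 lists was called between the genotypes on day 3, against 2.42% of all genes. Without the limit, 3 of 9 methyl donor genes passed as higher (Mat2a 0.26, Ahcy 0.26 and Amd1 0.19) and 2 of 9 PRC2 partners as lower (Aebp2 -0.26 and Phf19 -0.35), together with Hcfc1 (0.17) of the COMPASS list and Btg1 (0.15), against 15.2% of all genes.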

How the data were processed

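RNA sequencing of 9 libraries was analysed from 1 table of FPKM values that the authors deposited, rounded to 2 decimals, for 17596 genes. Per the submitters' processing notes, Bowtie2 and the builds GRCm38 and mm10 were used, and the sequencing institute made the values. The counter and annotation are not given in the sources used here. Sequencing depth is unknown, since FPKM hold no counts and no step common to low values was found, so no counting interval is given. The labels name TRNzol for RNA extraction and the study's methods a column kit.

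FPKM were transformed as log2(FPKM + 1), which understates fold changes of low genes, and not scaled further. All genes that reached a mean of 1 FPKM entered a single limma fit (version 3.58.1, R 4.3.3) with 4 group means, a trend and Benjamini-Hochberg adjustment over all 10823 genes. Calls needed an adjusted p below 0.05 together with a log2 fold change beyond 0.5 in either direction. Slc16a1 was also compared by an exact permutation test (scipy 1.17.1, Python 3.11.15). Figures were drawn with matplotlib 3.10.9. The procedure was tested on simulated data.

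Values in every library are given for the 6 called members that moved most, up and down, when Mb1Cre cells were activated, the most abundant member of each role, the H3K27 enzymes and the X-linked members. Of each partner list at most 2 called genes are named by size. The members and lists were chosen with earlier results of these data known. Gene coordinates and promoter sequences come from RefSeq (GRCm38.p6). Whether replicate numbers pair libraries was checked by the correlation of deviations from group means. Alternatives were other pseudocounts, filters, scalings and limits, a fit of only the groups compared, no trend, a replicate block and each library left out. A crossed block and the alternatives for Phf19 were added after seeing the data.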

Additional observations from a re-analysis of the deposited data

Results flagged for a closer look

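Phf19, an accessory subunit of PRC2, was the only gene of the partner lists called in the test of whether the genotype difference differed between the days. Without the limit on the log2 fold change, other listed genes passed that test too. They were Btg1 (0.30, adjusted p = 0.0121, limma), Mat2a (0.23, adjusted p = 0.0397, limma), Cxxc1 (0.29, adjusted p = 0.0401, limma) and Aebp2 (-0.30, adjusted p = 0.04045, limma). Of 9 proliferation genes, 5 also passed, all with a negative difference. Phf19 was 4.06 and 4.15 FPKM in naive Mb1Cre, 4.20 and 5.90 FPKM in naive Mct1f/fMb1Cre, 12.7 and 12.8 FPKM in activated Mb1Cre and 10.6, 9.33 and 9.62 FPKM in activated Mct1f/fMb1Cre libraries. The difference was -0.58 on the log2 scale (adjusted p = 0.0401, limma) and ran from -0.78 to -0.37 over 18 alternatives, chosen for this gene after seeing the data, with an adjusted p between 0.0040 and 0.130. The call was lost without either Mb1Cre library of day 0 (adjusted p = 0.0806 and 0.0684, limma), either of day 3 (adjusted p = 0.112 and 0.111, limma), naive Mct1f/fMb1Cre replicate 2 (adjusted p = 0.0673, limma), or activated Mct1f/fMb1Cre replicate 2 or 3 (adjusted p = 0.0860 and 0.0878, limma). It was also lost with a pseudocount of 5, no filter on low values, quantile normalization, the replicate block (adjusted p = 0.106, limma) and no trend. The cause was not tested.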

How the results depend on the processing

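Of the 63 calls of single members, 47 held in every alternative that kept the log2 limit and 16 were lost in at least 1 of these. No called member changed sign. Alternatives with another limit were not part of this tally. Beside those named above, another scaling or pseudocount ended the calls of Kdm2b, Kdm1b and Ehmt1 in Mb1Cre cells and of Kdm1a, Kdm4b, Kmt5a, Prmt6 and Setd7 in Mct1f/fMb1Cre cells. With no log2 limit, 2 members passed between genotypes on day 3 and 2 in the interaction, and 33 (Mb1Cre) and 31 (Mct1f/fMb1Cre) passed as lower on day 3. With a limit of 1, 6 members rose in each genotype, and 14 fell in Mb1Cre and 11 in Mct1f/fMb1Cre cells. Leaving out each library in turn gave 0 to 2 members between genotypes on day 0 and 0 to 2 in the interaction, in both cases 2 (Kdm6a and Kdm5c) without Mct1f/fMb1Cre day 0 replicate 2. The same omissions gave 9 to 10 higher and 20 to 23 lower members in Mb1Cre cells and 11 to 12 and 20 to 21 in Mct1f/fMb1Cre cells. Single omissions also carried Prmt9 (both genotypes), Setd7 (Mb1Cre) and Kdm3a and Kdm4c (Mct1f/fMb1Cre) past the limit on the lower side. The interaction needs all groups, so a fit of only the groups compared was not run for it.

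Libraries that share a replicate number did not deviate together (r between -0.122 and 0.0642). With the replicate number as a block, 0 members were called between genotypes on either day or in the interaction, 10 rose and 21 fell in Mb1Cre cells, and 12 rose and 21 fell in Mct1f/fMb1Cre cells. With the block, Kdm2a still passed on day 3 without the limit (adjusted p = 0.0279, limma), and Ezh2 did not (adjusted p = 0.0679, limma). A block with the Mb1Cre numbers crossed, added after seeing the data, also gave 10 and 21. The depth of the libraries is unknown, and precision rests on 2 or 3 libraries a group.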
